A study of Mus musculus with 6 samples.

Results

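Cardiac potassium channels were examined through 10 genes, chosen by name as rows of the count tables: the inward rectifier pores Kcnj2, Kcnj3, Kcnj5 and Kcnj11, the delayed rectifier pores Kcnq1 and Kcnh2, the transient outward pores Kcnd2 and Kcnd3, and the accessory subunits Kcne1 and Kcnip2. They are 10 of the 43629 genes listed. RNA-Seq was performed on ventricular cardiomyocytes of CD-1 mice at embryonic day 13.5, either with a 12 nM pool of siRNAs against DNMT1, the maintenance DNA methyltransferase, or with 12 nM AllStars negative control siRNA. There were 3 cultures per treatment, taken 72 h after transfection. No gene was deleted in any culture, both treatments used the same transfection reagent, and cells of both were sorted on magnetic columns for VCAM1, a surface protein of embryonic cardiomyocytes. The growth protocol in the labels states that ventricles were pooled by litter, and the labels do not say whether the cultures of a treatment came from separate litters, so the p-values measure only the spread between these samples. The comparison asks which genes change when DNMT1 is lowered.

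Potassium channels let potassium leave the cell and so set the resting potential and end the action potential. In cardiomyocytes the inward rectifiers hold the resting potential: Kcnj2 carries the IK1 current, Kcnj3 and Kcnj5 form the acetylcholine-gated channel IKACh, and Kcnj11 with a sulfonylurea receptor forms the ATP-sensitive channel. The delayed rectifiers Kcnq1, which pairs with Kcne1 in the IKs current, and Kcnh2, the pore of IKr, drive late repolarization. Kcnd2 and Kcnd3 with Kcnip2 carry the transient outward current, Ito, which shapes early repolarization in the adult mouse ventricle.

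The stretch that makes these proteins potassium channels is the selectivity filter, a short loop in the pore that coordinates the potassium ions. It is shown for the 8 pore-forming genes because it sets them apart from the 2 accessory subunits, which form no pore. The 45 coding bases around it were taken from the GENCODE transcripts of GRCm38, with the 5 codons of the filter in capitals. The search took codons for threonine or serine, then valine, isoleucine or leucine, then glycine, then tyrosine or phenylalanine, then glycine, in the reading frame.
Kcnj2 (chr11:111072186-111072230, plus strand, exon 2): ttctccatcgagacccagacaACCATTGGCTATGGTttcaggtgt
Kcnj3 (chr2:55437606-55437650, plus strand, exon 1): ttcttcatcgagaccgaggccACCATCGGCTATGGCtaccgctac
Kcnj5 (chr9:32322550-32322594, minus strand, exon 2): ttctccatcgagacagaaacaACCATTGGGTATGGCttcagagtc
Kcnj11 (chr7:46099487-46099531, minus strand, exon 1): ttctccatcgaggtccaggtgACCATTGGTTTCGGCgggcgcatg
Kcnq1 (chr7:143184534-143191455, plus strand, joined from exons 6 and 7): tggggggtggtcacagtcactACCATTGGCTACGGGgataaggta
Kcnh2 (chr5:24325546-24325590, minus strand, exon 7): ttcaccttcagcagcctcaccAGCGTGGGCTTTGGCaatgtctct
Kcnd2 (chr6:21217385-21714150, plus strand, joined from exons 1 and 2): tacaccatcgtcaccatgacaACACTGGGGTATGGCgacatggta
Kcnd3 (chr3:105459893-105658626, plus strand, joined from exons 2 and 3): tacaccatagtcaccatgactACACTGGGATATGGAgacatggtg

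The closest pair was Kcnd2 and Kcnd3, with 40 of 45 bases the same, and the least alike were Kcnj11 and Kcnq1, with 17 of 45. The motif was present in 160 of 21992 coding genes (0.728%) and in 67 of 69 other potassium channel pore genes (97.1%). No match was found in Kcne1 or Kcnip2.

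DNMT1 acts on CpG sites, so the 250 bases before the transcript start were also read from the RefSeq promoter table (GRCm38.p6), which held 7 of the 10 genes (Kcnj11, Kcnq1 and Kcne1 were not matched). CpG pairs, which read the same on both strands, numbered 7 in Kcnj3 and Kcnj5, 14 in Kcnj2 and Kcnh2, 15 in Kcnip2, 18 in Kcnd3 and 22 in Kcnd2, beside a median of 6 over 32851 promoters. The stretch listed for Kcnh2 (chr5:24329592-24329841, minus strand) lies within the gene, which spans 24319589-24351604, and so precedes an internal transcript start. Kcnd2 and Kcnj5 are printed as the richest and one of the poorest, with each CG in capitals. As many CpG pairs or more were held by 14.8% of all promoters for Kcnd2 and by 46.3% for Kcnj5. Methylation of these promoters was not analysed here.
Kcnd2 (chr6:21215096-21215345, plus strand): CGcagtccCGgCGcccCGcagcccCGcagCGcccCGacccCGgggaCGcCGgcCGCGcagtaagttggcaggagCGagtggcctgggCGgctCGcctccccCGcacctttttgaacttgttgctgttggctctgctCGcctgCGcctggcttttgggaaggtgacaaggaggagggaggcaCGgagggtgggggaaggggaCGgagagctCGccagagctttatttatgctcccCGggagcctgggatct
Kcnj5 (chr9:32344345-32344594, minus strand): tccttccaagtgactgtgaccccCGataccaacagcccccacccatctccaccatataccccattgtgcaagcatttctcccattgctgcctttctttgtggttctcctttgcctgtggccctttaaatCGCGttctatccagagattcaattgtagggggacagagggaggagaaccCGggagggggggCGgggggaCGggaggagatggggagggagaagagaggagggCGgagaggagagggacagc

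A count is the number of reads on a gene's exons. Counts on genes totalled 27852412 to 35896018 per negative siRNA culture and 13739561 to 16186310 per DNMT1 siRNA culture. Reads outside annotated exons made up 16.4% ± 1.58 (SD, n = 3) of the reads considered in the controls. In the DNMT1 siRNA cultures the share was 29.3% ± 4.23 (SD, n = 3), and the part of this difference in the results was not tested. Titles of the knockdown samples give DNMT1 as the target, but 1 of their characteristics gives DNMT3a; the titles were followed. Dnmt1 read 3446, 2760 and 2878 normalized counts with negative siRNA and 772, 786 and 666 with DNMT1 siRNA (log2 fold change -2.03, edgeR adjusted p = 0.000192), whereas Dnmt3a had a log2 fold change of 0.24 (edgeR adjusted p = 0.0919). Normalized counts are raw counts divided by the relative library size that edgeR's TMM method gives.

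A gene was called when its edgeR quasi-likelihood p, adjusted over the 15470 genes tested, was under 0.05 and its fold change was over 1.5. Over all tested genes this called 4.26% higher and 2.23% lower with DNMT1 siRNA. The same limits called 5.42% higher and 2.98% lower with the edgeR exact test, and 4.49% higher and 2.82% lower with DESeq2. An unadjusted p under 0.05 was found in 14.9% upward and 14.3% downward. The counts of every gene list are to be read against these shares.

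The libraries held transcripts of cardiomyocytes and of other cells. Summed levels of 10 cardiomyocyte markers, in reads per kilobase of exon scaled to library size (RPKM), ran from 446.5 to 611.6 with negative siRNA and from 1099 to 1410 with DNMT1 siRNA, and 7 of the 10 rose. Among 7 atrial markers, 2 rose and 1 fell. Summed levels of 8 fibroblast markers ran from 4601 to 7000.2 and from 3478 to 3689 in the same order of treatments, and 3 of the 8 fell. Summed levels of 8 smooth muscle and pericyte markers ran from 2398 to 3643 and from 2042 to 2132, and 1 fell. The 7 endothelial markers summed to 17.8 to 25.6 and to 26.8 to 29.0, with 2 that rose, and the 6 epicardial markers to 509.7 to 598.2 and to 577.9 to 606.2, with 1 that fell. At an unadjusted p under 0.05, 8 cardiomyocyte markers were higher and 0 lower, and 6 endothelial markers higher and 1 lower. Higher and lower were 0 and 6 fibroblast, 1 and 5 smooth muscle and pericyte, 3 and 2 atrial, and 0 and 2 epicardial markers. Over all tested genes 14.9% were higher and 14.3% lower at that limit. None of the 7 macrophage markers (summed levels 5.33 to 16.5 and 4.97 to 7.87) was called by edgeR's quasi-likelihood test, while 4 were lower at an unadjusted p under 0.05 (14.3% of all tested genes) and 4 were called lower by the edgeR exact test (2.98%) and by DESeq2 (2.82%). None of the 3 tested of 7 neuronal markers was called by those 3 tests or had an unadjusted p under 0.05. In the neuronal list Snap25, Stmn2 and Nefl were near 0, with mean levels of at most 0.0342 RPKM in either treatment. In such bulk samples a change in the number of cells of a type and a change in RNA per cell cannot be told apart, and the part of these markers in the results on potassium channels was not tested.

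Of the 10 potassium channel genes, Kcnq1 rose with DNMT1 siRNA, and no other gene was called in either direction. Kcnj3 and Kcnip2 had too few counts to be tested, which left 8. So 1 of 8 was called higher, where 4.26% of all tested genes were, and 0 of 8 lower, where 2.23% were. The edgeR exact test and DESeq2 each called 2 higher (5.42% and 4.49% of all tested genes) and 0 lower (2.98% and 2.82%). At an unadjusted p under 0.05, 4 of the 8 were higher and 0 lower, as were 14.9% and 14.3% of all tested genes. In 3 of the 8 (Kcnj5, Kcnq1 and Kcnd2) every DNMT1 siRNA culture lay above every negative siRNA culture, as in 18.3% of all tested genes, and in 1 (Kcnd3) every one lay below, as in 17.7%. The log2 fold change was above 0 in 7 of the 8, as in 49.3% of all tested genes, and its median was 0.49, beside -0.0049 over all of them. Of these 8 genes, 6 had a mean normalized count under 100, and of the 4250 tested genes under that limit 6.31% were called higher, 20.9% had no overlap upward, 7.72% had none downward, and the median log2 fold change was 0.15.

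**Figure D1:**
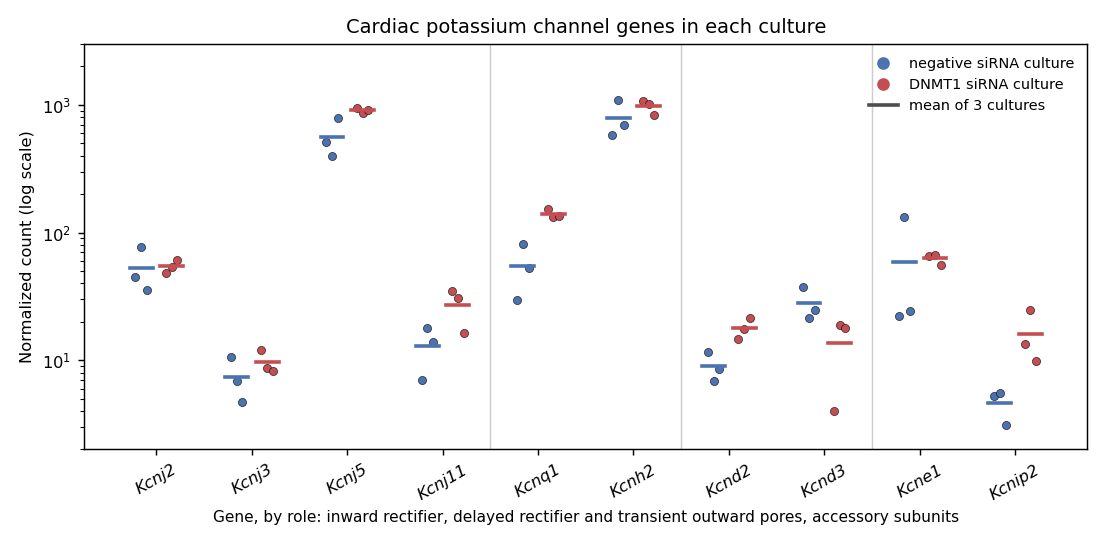
Normalized counts of the 10 potassium channel genes (log axis) in each of the 3 negative siRNA (blue) and 3 DNMT1 siRNA (red) cultures, with bars for the mean of each treatment. Kcnj5 and Kcnh2 stand above the other genes, and the red points of Kcnq1, at 131.2 to 154.2, all lie above the blue ones.

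Levels per exon length separated the 10 genes into 2 abundant ones and 8 scarce ones. With negative siRNA, mean levels in RPKM were 7.53 for Kcnh2, 5.56 for Kcnj5, 0.850 for Kcne1, 0.615 for Kcnq1, 0.445 for Kcnj2, 0.163 for Kcnj11, 0.134 for Kcnd3, 0.0808 for Kcnd2, 0.0649 for Kcnj3 and 0.0613 for Kcnip2. Neighbours in this order overlapped in range except Kcnj5 and Kcne1, and Kcnj2 and Kcnj11. With DNMT1 siRNA the order was Kcnh2 (9.30), Kcnj5 (8.90), Kcnq1 (1.57), Kcne1 (0.900), Kcnj2 (0.459), Kcnj11 (0.342), Kcnip2 (0.212), Kcnd2 (0.159), Kcnj3 (0.0853) and Kcnd3 (0.0656), again in mean RPKM. There the ranges of 4 pairs of neighbours did not overlap: Kcnj5 and Kcnq1, Kcnq1 and Kcne1, Kcne1 and Kcnj2, and Kcnd2 and Kcnj3. Over all 6 cultures Kcnh2 was above 65.6% of tested genes and Kcnj5 above 62.0%, whereas Kcnq1 was above 22.9% and the Ito genes Kcnd2, Kcnd3 and Kcnip2 above 2.02%, 1.38% and 2.58%.

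Kcnq1 (ENSMUSG00000009545, chr7:143106362-143427042 in GRCm38), the pore of the slow delayed rectifier IKs, read 29.8, 81.3 and 52.9 normalized counts with negative siRNA and 154.2, 131.2 and 134.1 with DNMT1 siRNA. The treatments did not overlap, and the DNMT1 siRNA cultures lay close together, while replicate 2 stood highest among the negative siRNA cultures. The means were 54.7 ± 25.8 and 139.8 ± 12.5 (SD, n = 3 each), a 2.57-fold increase with a 95% interval of 1.54 to 4.30 (log2 fold change 1.36, SE 0.32, edgeR adjusted p = 0.0319). DESeq2 gave an adjusted p of 0.000653 and the edgeR exact test 0.00257. The call was lost without negative siRNA replicate 3 (edgeR adjusted p = 0.0671) and without each DNMT1 siRNA replicate in turn (0.103 to 0.117), with log2 fold changes of 1.26 to 1.40 in those fits.

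Kcne1 (ENSMUSG00000039639, chr16:92345982-92359468), the small accessory subunit that slows the opening of the Kcnq1 channel, read 22.2, 131.7 and 24.1 normalized counts with negative siRNA and 65.7, 67.1 and 55.6 with DNMT1 siRNA. Negative siRNA replicate 2 lay above all DNMT1 siRNA cultures and the other two lay below, so the treatments overlapped (log2 fold change 0.087, SE 0.65, edgeR adjusted p = 0.945). This gene rested on 1 culture. Without negative siRNA replicate 2 the log2 fold change was 1.44 (edgeR adjusted p = 0.00471), and without replicate 1 or 3 it was -0.32 and -0.27.

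Kcnh2 (ENSMUSG00000038319, chr5:24319589-24351604), the pore of the rapid delayed rectifier IKr, was the most abundant of the 10 genes in both treatments. It read 577.1, 1102 and 698.3 normalized counts with negative siRNA and 1073, 1020.3 and 840.6 with DNMT1 siRNA. The treatments overlapped through negative siRNA replicate 2, the highest of the 6 (log2 fold change 0.31, 95% interval -0.20 to 0.81, edgeR adjusted p = 0.399). Without that culture the log2 fold change was 0.62 and the gene was called (edgeR adjusted p = 0.00954). In the other fits that left out a culture it was not called (log2 fold change 0.12 to 0.39, edgeR adjusted p = 0.418 to 0.707).

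**Figure D2:**
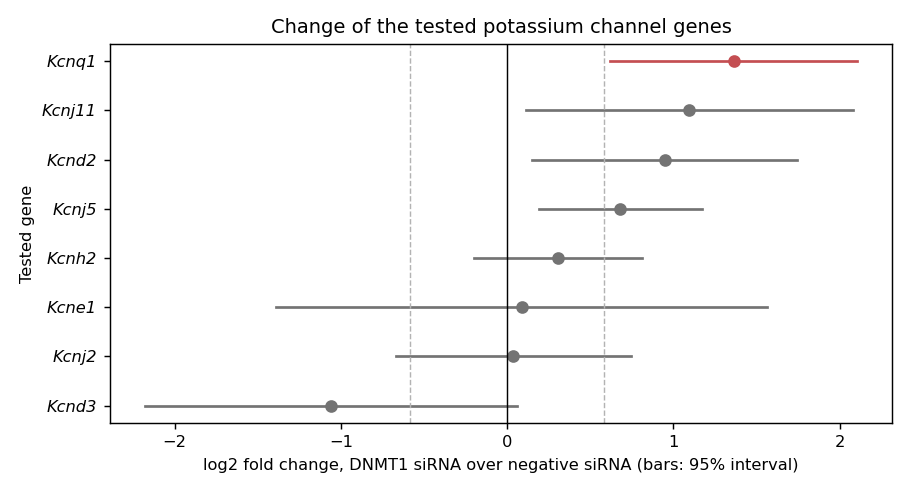
Log2 fold change (DNMT1 siRNA over negative siRNA, horizontal axis) of the 8 tested potassium channel genes, with 95% intervals from the edgeR fit as bars and dashed lines at a fold change of 1.5 in either direction. Only Kcnq1 (red) passed the limits, with an interval from 0.62 to 2.10, whereas the interval of Kcnd3, from -2.18 to 0.060, reached past 0.

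Kcnj5 (ENSMUSG00000032034, chr9:32314707-32344350), a subunit of the acetylcholine-gated channel IKACh, read 508.3, 399.8 and 787.7 normalized counts with negative siRNA and 940.0, 862.9 and 912.6 with DNMT1 siRNA. All DNMT1 siRNA cultures were higher, by 1.60-fold on the fitted scale with an interval of 1.14 to 2.26 (log2 fold change 0.68, SE 0.21, edgeR adjusted p = 0.0747). The main test did not call it, whereas the edgeR exact test (adjusted p = 0.0224) and DESeq2 (adjusted p = 0.00984) did. Leaving out negative siRNA replicate 3, the highest control, also brought it past the limits (log2 fold change 0.99, edgeR adjusted p = 0.0061). In the other fits that left out a culture it was not called (log2 fold change 0.49 to 0.71, edgeR adjusted p = 0.0678 to 0.205).

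Its partner subunit Kcnj3 (ENSMUSG00000026824, chr2:55435970-55598145) had 18, 10 and 6 raw counts with negative siRNA and 9, 6 and 5 with DNMT1 siRNA, too few for the test. Scaled to library size these were 10.5, 6.89 and 4.67 against 12.1, 8.75 and 8.18, and the treatments overlapped. Kcnj3 shares 1621 of its 5215 exon bases with the antisense gene Gm26794, which had at most 1 count in any library. The kit does not mark strand and the strand setting of the counter is not given, so reads of such partners cannot be told apart. If strand was ignored, reads on shared bases were left out of both genes, and levels of Kcnj3 per exon length may be too low. Reads that fitted more than 1 gene made up 3.58% to 3.65% of the reads considered with negative siRNA. With DNMT1 siRNA they made up 6.02% to 6.35%, and their part in these counts was not tested. Per exon length Kcnj3 stood at 0.0186, 0.0155 and 0.00532 of Kcnj5 with negative siRNA and at 0.0115, 0.00911 and 0.00805 with DNMT1 siRNA. This log2 ratio differed by -0.29 between treatments (exact permutation test, two-sided p = 0.7, adjusted p = 0.7 over the 4 ratios tested), and by 0.059 without negative siRNA replicate 1.

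Receptors that open IKACh rose. Of 11 receptor, G protein and regulator genes, all tested, 3 rose and 0 fell by edgeR's quasi-likelihood test, the edgeR exact test and DESeq2 alike, beside 4.26% and 2.23% of all tested genes by the quasi-likelihood test, and 1 was lower at an unadjusted p under 0.05, beside 14.3%. Chrm2, the muscarinic receptor of cardiomyocytes, read 203.7, 213.7 and 156.3 normalized counts with negative siRNA and 620.9, 542.2 and 507.0 with DNMT1 siRNA (2.91-fold, interval 2.32 to 3.64, edgeR adjusted p = 0.000964). Adora1, the adenosine receptor that opens the same channel, had a log2 fold change of 1.31 (SE 0.27, edgeR adjusted p = 0.0186). Rgs6, which speeds the closing of the channel by shortening G protein signals, had one of 1.02 (SE 0.25, edgeR adjusted p = 0.0364). Of the 11 genes, 4 lay higher and 2 lower without overlap between treatments, beside 18.3% and 17.7% of all tested genes. The 3 genes above, named because they were called, are among the 4. Chrm2 was called in all 6 fits that left out a culture, whereas Adora1 was not without DNMT1 siRNA replicate 1 or 2 (edgeR adjusted p = 0.0800 and 0.0680). Rgs6 was not called without negative siRNA replicate 1 (edgeR adjusted p = 0.0563) or each DNMT1 siRNA replicate in turn (0.0922 to 0.144).

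Kcnj11 (ENSMUSG00000096146, chr7:46093953-46100764), the pore of the ATP-sensitive channel, had 12, 26 and 18 raw counts with negative siRNA and 26, 21 and 10 with DNMT1 siRNA. Its normalized counts were 7.0, 17.9 and 14.0 against 34.9, 30.6 and 16.4. Negative siRNA replicate 2 lay above DNMT1 siRNA replicate 3, and the others were separate (log2 fold change 1.10, interval 0.11 to 2.08, edgeR adjusted p = 0.134). Of the sulfonylurea receptors that assemble with it, Abcc8 rose from 16.3, 33.1 and 14.8 normalized counts to 68.4, 67.1 and 42.5 (2.77-fold, log2 fold change 1.47, SE 0.36, edgeR adjusted p = 0.0357). Of the 6 fits that left out a culture it was called only without negative siRNA replicate 2 (edgeR adjusted p = 0.0704 to 0.151 in the others). Abcc9, the form usual in ventricle and vessels, read 42.0, 82.7 and 106.5 with negative siRNA and 148.8, 115.2 and 124.3 with DNMT1 siRNA. It did not overlap between treatments but was not called (log2 fold change 0.76, SE 0.31, edgeR adjusted p = 0.150).

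Kcnj2 (ENSMUSG00000041695, chr11:111066164-111076821), the main pore of IK1, read 44.9, 77.2 and 35.8 normalized counts with negative siRNA and 48.3, 53.9 and 60.5 with DNMT1 siRNA. The DNMT1 siRNA cultures lay within the range of the controls (log2 fold change 0.038, interval -0.67 to 0.75, edgeR adjusted p = 0.950). Its sign turned in 3 of the fits that left out a culture. Kcnj12, another IK1 pore, was scarcer at 9.34, 8.96 and 17.1 normalized counts with negative siRNA and rose to 38.9, 29.2 and 22.9 with DNMT1 siRNA (2.60-fold, log2 fold change 1.38, SE 0.37, edgeR adjusted p = 0.0447). Of the 6 fits that left out a culture it was called only without negative siRNA replicate 3 (edgeR adjusted p = 0.0641 to 0.172 in the others).

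The transient outward pores differed in direction. Kcnd2 (ENSMUSG00000060882, chr6:21215503-21729805) had 20, 10 and 11 raw counts with negative siRNA and 11, 12 and 13 with DNMT1 siRNA, or 11.7, 6.89 and 8.55 against 14.7, 17.5 and 21.3 after scaling. All DNMT1 siRNA cultures lay above the controls (log2 fold change 0.95, SE 0.35, interval 0.15 to 1.75, edgeR adjusted p = 0.113). Kcnd3 (ENSMUSG00000040896, chr3:105452330-105674002) had 64, 31 and 32 raw counts with negative siRNA and 3, 13 and 11 with DNMT1 siRNA, or 37.3, 21.4 and 24.9 against 4.02, 18.9 and 18.0. All DNMT1 siRNA cultures lay below the controls, with replicate 1 the lowest (log2 fold change -1.06, SE 0.49, interval -2.18 to 0.060, edgeR adjusted p = 0.194). Neither was called in any of the 12 fits. Kcnd3 shares 165 of 9587 exon bases with the antisense gene Kcnd3os, which had at most 3 counts in any library.

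Within each library, Kcnd2 stood per exon length at 0.582, 0.600 and 0.640 of Kcnd3 with negative siRNA and at 6.82, 1.72 and 2.20 with DNMT1 siRNA. Kcnd3 was thus the more abundant in every control culture and Kcnd2 in every DNMT1 siRNA culture. The log2 ratio differed by 2.28, or 4.87-fold (exact permutation test, two-sided p = 0.1, the smallest that 3 against 3 allows, adjusted p = 0.2 over 4 ratios). Without DNMT1 siRNA replicate 1 the difference was 1.68 on the log2 scale. Behind it lie 11 to 13 counts of Kcnd2 and 3 to 13 of Kcnd3 per DNMT1 siRNA library.

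Kcnip2 (ENSMUSG00000025221, chr19:45791839-45816061), the calcium-binding subunit that carries the Ito pores to the membrane, had 9, 8 and 4 raw counts with negative siRNA and 10, 17 and 6 with DNMT1 siRNA and was not tested. Scaled to library size these were 5.25, 5.51 and 3.11 against 13.4, 24.8 and 9.81, and all DNMT1 siRNA cultures lay above the controls. Without the filter on low counts it was called (log2 fold change 1.72, edgeR adjusted p = 0.0203), as were 994 of 31775 genes upward. It passed the filter in the 6 fits that left out a culture. There it was called only without negative siRNA replicate 2 (edgeR adjusted p = 0.0480, and 0.0736 to 0.218 in the others). Per exon length it stood at 0.245, 0.445 and 0.210 of Kcnd2 plus Kcnd3 with negative siRNA and at 1.18, 1.33 and 0.470 with DNMT1 siRNA (log2 difference 1.67, exact permutation test, two-sided p = 0.1, adjusted p = 0.2). The remaining ratio, Kcne1 to Kcnq1, was 0.949, 2.06 and 0.581 against 0.543, 0.651 and 0.528, and overlapped (log2 difference -0.87, exact permutation test, two-sided p = 0.2, adjusted p = 0.267). Without negative siRNA replicate 2 that difference was -0.38.

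**Figure D3:**
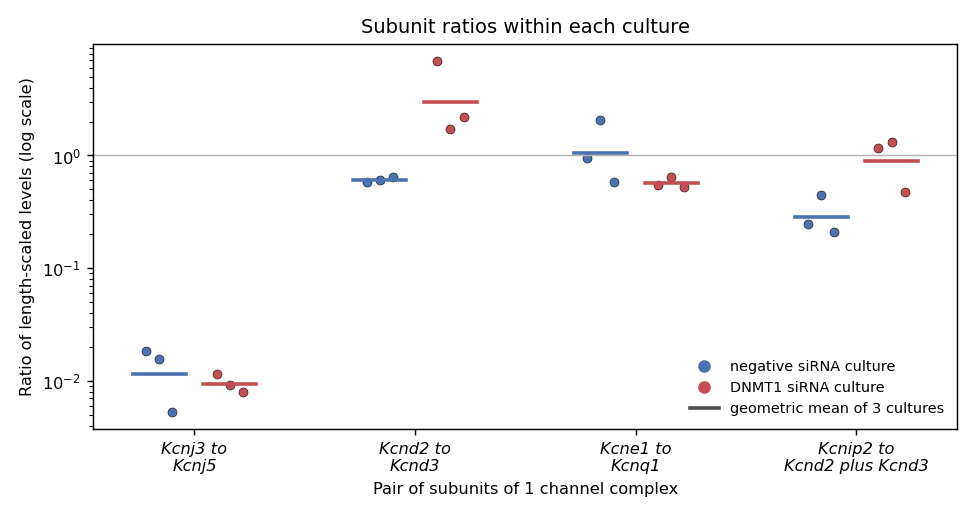
Ratios of levels per exon length between subunits of the same channel (log axis) in the 3 negative siRNA (blue) and 3 DNMT1 siRNA (red) cultures, with bars for the geometric means and a grey line where subunits are equal. Kcnd2 to Kcnd3 lies at 0.582 to 0.640 in blue and 1.72 to 6.82 in red, on either side of the line, whereas Kcne1 to Kcnq1 and Kcnj3 to Kcnj5 overlap.

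The Kcnq1 locus lies in an imprinted domain, where the promoter of the antisense transcript Kcnq1ot1 sits inside Kcnq1 and is methylated on the maternal chromosome. Of 8 genes of the domain, 6 were tested, and 2 in addition to Kcnq1 rose and 0 fell by edgeR's quasi-likelihood test, beside 4.26% and 2.23% of all tested genes. The edgeR exact test and DESeq2 each called 2 higher (5.42% and 4.49% of all tested genes) and 1 lower (2.98% and 2.82%), and 1 was lower at an unadjusted p under 0.05 (14.3%). Kcnq1ot1 (chr7:143203458-143296549) read 479.7, 428.8 and 549.0 normalized counts with negative siRNA and 631.6, 970.8 and 837.4 with DNMT1 siRNA. It was higher in every DNMT1 siRNA culture (1.67-fold, interval 1.30 to 2.16, edgeR adjusted p = 0.0229). It was not called without DNMT1 siRNA replicate 2 or 3 (edgeR adjusted p = 0.107 and 0.0959). Its annotated exon of 93092 bases lies wholly within Kcnq1, over Kcnq1 introns except for 121 of the 4093 Kcnq1 exon bases. The kit does not mark strand, so over this whole span Kcnq1ot1 reads and reads from unspliced Kcnq1 RNA cannot be told apart. Beside this stand the rise of Kcnq1 itself and the larger share of reads outside exons with DNMT1 siRNA, whose part in the 1.67-fold difference was not tested. Tssc4 rose 1.57-fold (log2 fold change 0.65, SE 0.11, edgeR adjusted p = 0.00937), but not past the limits without negative siRNA replicate 2 (log2 fold change 0.57) or DNMT1 siRNA replicate 1 or 2 (edgeR adjusted p = 0.0568 and 0.0611). Cdkn1c, an inhibitor of cell division expressed from the maternal copy, read 717.2, 1353 and 606.6 normalized counts with negative siRNA and 533.7, 460.6 and 453.0 with DNMT1 siRNA, all of the latter below the former (log2 fold change -0.89, SE 0.28, edgeR adjusted p = 0.0719). It was the gene of the domain called lower by the edgeR exact test and DESeq2. Over the fits that left out a culture its log2 fold change ran from -1.10 to -0.46, and 1 of these 6 called it (edgeR adjusted p = 0.0231 to 0.224).

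**Figure D4:**
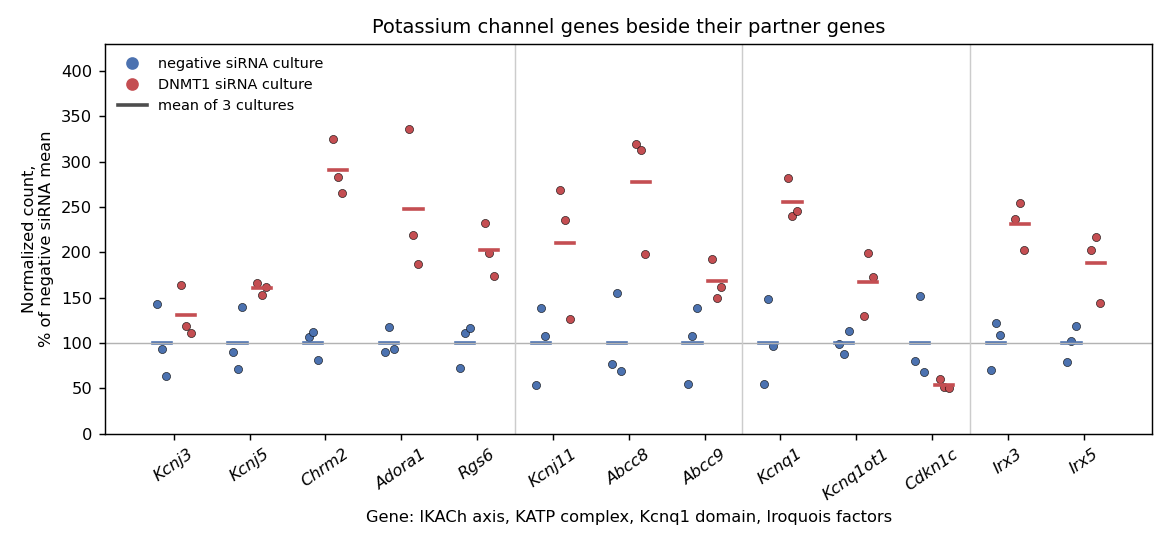
Normalized counts as a percentage of the negative siRNA mean for potassium channel genes and genes that act with them, in the 3 negative siRNA (blue) and 3 DNMT1 siRNA (red) cultures, with bars for the means. Chrm2, Adora1, Rgs6, Abcc8, Kcnq1, Kcnq1ot1, Irx3 and Irx5 passed the limits and their red points all lie above the blue ones, whereas Kcnj3 and Kcnj11 overlap and Cdkn1c lies lower.

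Iroquois factors are transcription factors that pattern Ito genes across the ventricle wall, and Irx5 is known to repress Kcnd2. Of the 3 genes tested, 2 rose, beside 4.26% of all tested genes. Irx3 read 95.7, 166.8 and 149.3 normalized counts with negative siRNA and 324.5, 349.8 and 278.0 with DNMT1 siRNA (2.32-fold, edgeR adjusted p = 0.00974). Irx5 rose from 62.4, 81.3 and 94.1 normalized counts to 160.9, 172.0 and 114.5 (1.89-fold, edgeR adjusted p = 0.0313). All 3 Iroquois genes, also the uncalled Irx4, lay higher without overlap between treatments, as did 18.3% of all tested genes. All 3 were higher at an unadjusted p under 0.05 (14.9%). Without DNMT1 siRNA replicate 1 or 2 neither Irx3 nor Irx5 was called (edgeR adjusted p = 0.0511 and 0.0620 for Irx3, 0.122 and 0.148 for Irx5). Irx5 was also not called without negative siRNA replicate 1 (edgeR adjusted p = 0.0518). Kcnd2 was higher but not called (log2 fold change 0.95), and a link to Irx5 was not tested. Among 7 genes for scaffolds and anchors of channels, 1 rose and 0 fell by edgeR's quasi-likelihood test, beside 4.26% and 2.23% of all tested genes. At an unadjusted p under 0.05, 3 were higher and 1 lower (14.9% and 14.3% of all tested genes), and 2 were called higher and 0 lower by DESeq2 (4.49% and 2.82%) and by the edgeR exact test (5.42% and 2.98%). That gene was Actn2, the Z-disc protein alpha-actinin, with a log2 fold change of 1.25 (SE 0.18, edgeR adjusted p = 0.00473), and it is also a cardiomyocyte structural gene.

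A further 87 potassium channel genes were listed by family, and 40 of them had enough counts. Of these, 2 rose (Kcnj12 and Abcc8) and 3 fell (Kcnq5, Kcne4 and Kcnip3), beside 4.26% and 2.23% of all tested genes. Their median log2 fold change was 0.16, beside -0.0049 over all tested genes. Over the 4250 tested genes with a mean normalized count under 100 it was 0.15. At an unadjusted p under 0.05, 10 of the 40 were higher and 4 lower (14.9% and 14.3% of all tested genes). Without overlap between treatments, 11 lay higher and 3 lower (18.3% and 17.7%).

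Kcnq5, a voltage-gated pore of the Kcnq family, read 110.3, 146.8 and 96.4 normalized counts with negative siRNA and 71.1, 70.0 and 52.3 with DNMT1 siRNA (log2 fold change -0.86, SE 0.22, edgeR adjusted p = 0.0382). Kcne4, an accessory subunit that inhibits Kcnq1 channels, read 288.3, 223.4 and 395.8 against 169.0, 145.8 and 202.8 normalized counts (log2 fold change -0.81, SE 0.22, edgeR adjusted p = 0.0491). Kcnip3, of the same family as Kcnip2, read 55.4, 48.9 and 51.3 against 22.8, 30.6 and 31.1 (log2 fold change -0.89, SE 0.23, edgeR adjusted p = 0.0400). None of these 3, named because they were called, overlapped between treatments. Kcnq5 was not called without each DNMT1 siRNA replicate in turn (edgeR adjusted p = 0.0974 to 0.138). Kcne4 and Kcnip3 were called, of the 6 fits that left out a culture, only without negative siRNA replicate 2, with an edgeR adjusted p of 0.0678 to 0.190 and of 0.0618 to 0.140 in the others. Within the Kcnq family Kcnq1 was thus higher and Kcnq5 lower.

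By family, 1 of 3 tested of 11 other inward rectifiers rose, and 1 of the 2 sulfonylurea receptors, beside 4.26% of all tested genes. Of 36 other voltage-gated pores 14 were tested, and 0 rose and 1 fell, beside 4.26% and 2.23% of all tested genes. DESeq2 called 1 of these 14 higher and 1 lower (4.49% and 2.82%), as did the edgeR exact test (5.42% and 2.98%). At an unadjusted p under 0.05, 3 were higher and 2 lower (14.9% and 14.3%). Of 16 other accessory subunits 10 were tested and 2 fell, beside 2.23% of all tested genes. The edgeR exact test called 2 of them lower (2.98%) and DESeq2 called 1 (2.82%). None of the 6 tested of 14 tandem-pore channels was called by edgeR's quasi-likelihood test, the edgeR exact test or DESeq2, with 1 higher at an unadjusted p under 0.05 (14.9% of all tested genes). None of the 5 tested of 8 calcium- and sodium-activated channels was called by the main test or DESeq2. Among them, 2 were higher at an unadjusted p under 0.05 (14.9% of all tested genes). The edgeR exact test called 1 higher (5.42%).

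The most abundant genes of these families that were not called include some well above the cardiac members. Kcnab1, a cytoplasmic beta subunit, averaged 17.4 RPKM and had a log2 fold change of -0.0096 (interval -0.20 to 0.18), and Kcne5, an accessory subunit, averaged 17.3 RPKM with -0.44 (edgeR adjusted p = 0.262). Kcnj15, an inward rectifier, averaged 9.61 RPKM with 0.28, and Kcnj4, a relative of Kcnj2, 0.679 RPKM with -0.32 (edgeR adjusted p = 0.603 and 0.613). Kcng2, a silent subunit that modifies other voltage-gated pores, averaged 4.87 RPKM and had a log2 fold change of 0.95 (edgeR adjusted p = 0.0522), with no overlap between treatments. Kcna7 averaged 2.13 RPKM with a log2 fold change of -0.16 (edgeR adjusted p = 0.634).

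Among the tandem-pore channels, which carry background currents, Kcnk6 averaged 2.14 RPKM with a log2 fold change of -0.073, and Kcnk5 2.04 RPKM with 0.37 (edgeR adjusted p = 0.829 and 0.252). The sodium-activated channel Kcnt2 averaged 2.26 RPKM with a log2 fold change of 0.43 (edgeR adjusted p = 0.0512) and no overlap between treatments, and the calcium-activated Kcnn1 0.498 RPKM with -0.040 (edgeR adjusted p = 0.933).

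The genes whose pattern was most like that of Kcnq1 over the 6 libraries were sought among 11218 tested genes with a mean normalized count of at least 100. Likeness was the distance between log2 CPM values after each gene was centred on its own mean. The nearest were Emcn, Slc2a4 and Plvap, at distances of 0.386, 0.392 and 0.432. Their log2 fold changes were 1.38, 1.07 and 1.06 (edgeR adjusted p = 0.0469, 0.0834 and 0.0713). Of these genes only Emcn was called, and it kept its call in 2 of the 6 fits that left out a culture. Emcn and Plvap are endothelial genes, the former also in the endothelial list above, and Slc2a4 is the insulin-responsive glucose transporter of muscle and fat.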

How the data were processed

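Per the labels and the methods, the authors sorted the cells, prepared poly(A) libraries, sequenced them in a single run, cleaned the reads with FastQC, mapped them to mm10 (TopHat2) and counted those on each Ensembl gene (HTSeq). The deposited values are raw counts, 1 file per culture. The kit does not mark strand, and the strand setting of the counter is not given in the sources used here. Groups follow the sample titles.

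Counts were normalized by TMM and tested with edgeR 4.0.16 (quasi-likelihood F test, R 4.3.3) after its filter on low counts (minimum count 10, minimum total 15), with Benjamini-Hochberg adjustment over 15470 genes. Limits were an FDR of 0.05 and a fold change of 1.5. Standard errors and 95% intervals come from the F statistic. RPKM used exon lengths of GENCODE (GRCm38), which held 42462 of 43629 genes. Alternatives were RLE normalization, no filter, DESeq2 1.42.0, the edgeR exact test, a replicate block, leaving out each culture, and no fold limit. All 10 genes, every called gene of the partner lists and the 2 most abundant uncalled genes of each channel family are named, with Kcnq1ot1, Dnmt1 and Dnmt3a. Cdkn1c was named after its values were seen. The genes and lists were chosen with earlier results of these data known. Counting error at 13739561 to 35896018 counts per library leaves genes under about 20 counts imprecise.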

Additional observations from a re-analysis of the deposited data

How the results depend on the processing

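Replicate numbers gave no sign of pairs of cultures (mean correlation of deviations 0.0043 for equal and -0.0017 for different numbers). With 3 cultures per treatment this cannot tell whether cultures of equal number shared litters. With the replicate block Kcnq1 kept its call (log2 fold change 1.44, edgeR adjusted p = 0.0485) and Kcnj5 stayed just short (edgeR adjusted p = 0.0526). Of the 40 other potassium channel genes tested, 1 was called higher and 2 lower with the block, beside 513 and 285 of all 15470. Under the block Kcnj12 (adjusted p = 0.0868), Kcnip3 (0.0860), Rgs6 (0.0759) and Irx5 (0.0661) lost their calls in edgeR. Over all 15470 tested genes, 659 were higher and 345 lower with DNMT1 siRNA. These were 994 and 701 of 31775 with no filter on low counts, and 1054 and 874 of 15470 with no limit on fold change. Leaving out a culture gave 255 to 823 higher and 112 to 472 lower, of 15188 to 16508 tested. The lowest of each came without DNMT1 siRNA replicate 2. Of the cardiac genes, 1 of 8 tested was called higher, against 3 of 10 with no filter (Kcnq1, Kcnj5 and Kcnip2). The edgeR exact test and DESeq2 each called 2 of 8 (Kcnq1 and Kcnj5), beside 838 and 694 of all 15470. Leaving out a culture gave 0 to 4 of 9 or 10 tested. The 4 of 9, without negative siRNA replicate 2, were Kcnq1, Kcnh2, Kcne1 and Kcnip2, beside 823 of all 15191 tested in that fit. The 0 of 10 came without each DNMT1 siRNA replicate in turn, where 255 to 316 of all tested genes were called higher. None was called lower in any fit. Of the other potassium channel genes, 2 of 40 tested were called higher, against 6 of 87 with no filter and 4 of 40 with the edgeR exact test. When a culture was left out, 0 to 6 of 39 to 52 tested were. Among them 3 of 40 were called lower, against 7 of 87 with no filter and 0 to 3 of 39 to 52 when a culture was left out. The difference in the Kcnj3 to Kcnj5 ratio ran from -0.84 to 0.059 (log2) over the left-out cultures, and turned sign without negative siRNA replicate 1. The log2 fold change of Kcnj2 ran from -0.17 to 0.41 and was -0.069 without negative siRNA replicate 1, -0.17 without negative siRNA replicate 3 and -0.060 without DNMT1 siRNA replicate 3. That of Kcne1 ran from -0.32 to 1.44 and was -0.32 and -0.27 without negative siRNA replicate 1 or 3. Apart from the smaller number of samples or the change of filter, the cause was not tested. Library depth limits Kcnj3, Kcnip2, Kcnd2, Kcnd3 and Kcnj11, each with 3 to 64 counts per culture.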
